A study of Mus musculus with 6 samples.

Results

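Chemokines are small secreted or membrane-held proteins that guide leukocytes by binding receptors on their surface. Those described here were grouped as chemokines that the gut wall makes in the resting state, without need of interferon. Whether interferon also raises any of them was not tested. Epithelial cells make Ccl25, Ccl28, Ccl20, Cxcl16 and Cx3cl1, connective tissue cells make Cxcl12, Cxcl13 and Ccl11, and macrophages make Ccl6 and Ccl8. Together they place lymphocytes in the epithelium and lamina propria, build lymphoid follicles and hold eosinophils and macrophages in the wall. The members were all probe sets whose platform gene symbol was Ccl25, Ccl28, Ccl20, Ccl6, Ccl8, Ccl11, Cxcl12, Cxcl13, Cxcl16 or Cx3cl1. This rule gave 17 probe sets of 10 genes, out of 22626 probe sets and 12393 singly named genes on the array.

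RNA came from the proximal colon of mice aged 8 weeks, with 1 array for each of 6 colon samples. The mice had received a defined control diet for 5 weeks after weaning. Wild-type mice (genotype label wt, 3 arrays) were compared with mice heterozygous for a gene-trap allele of Mthfd1 (genotype label Mthfd1/+, 3 arrays), a gene of folate one-carbon metabolism under study as a modifier of intestinal tumours. The labels name no strain or sex, and do not say where in the gene the trap lies or whether the genotypes were littermates. Each group's arrays are labelled biological replicates. The tissue was whole colon wall, and no cell type was isolated.

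The deposited values are linear intensities on a scale that each array was brought to, with a trimmed mean of 500.2 on every array, and they carry no detection call. Intensities of different probe sets are not comparable with one another, so levels are compared between arrays, for 1 probe set or for the sum of a fixed list. Such a sum is weighted towards the brightest probe sets of its list and does not describe its dimmer genes. Mthfd1 was lower in all 3 heterozygous arrays, with means of 890 ± 56.1 (wild-type) and 504 ± 48.4 (heterozygous; SD, n = 3 each) at its brightest probe set. The summed intensity of 7 colonocyte markers was 34694 to 39874 in wild-type and 32837 to 42947 in heterozygous arrays, none was listed at 0, and Car1, a carbonic anhydrase of colonocytes that made up the largest share of that sum, read at least 15442.6 in each array. Other colonocyte genes varied more, with the water channel Aqp8 from 667.8 to 3454.3, and 3 of the 7 were lowest in wild-type replicate 3 and heterozygous replicate 1. The ileal bile acid binding protein Fabp6 ran from 93.5 to 5662. Wild-type replicate 3 and heterozygous replicate 1 were the lowest 2 arrays for 7 of 10 ileal enterocyte genes, against 7.88% of all probe sets. Those 2 arrays stand apart in several results below, and the values without them are given there. The 2 arrays were picked out after the values were seen.

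The promoters of the chemokines that varied most between arrays or genotypes are shown first, since the wide range of Ccl25 and Ccl8 and the high arrays of Cxcl13 carry most of what follows. Each is the 250 bases before a transcription start of RefSeq, build GRCm38.p6, and Cxcl10, an interferon-inducible chemokine, is given for contrast. Capitals mark a match to the TATA box letters TATAA or to the interferon-stimulated response element (GAAA, any 2 bases, then GAAA), searched on both strands. The Ccl25 stretch is chr8:4349338-4349587 (plus strand), before the downstream of its 2 listed starts, that of Ccl8 is chr11:82114935-82115184 (plus strand), that of Cxcl13 is chr5:95956689-95956938 (plus strand) and that of Cxcl10 is chr5:92348890-92349139 (minus strand, written in the direction of the gene).
Ccl25: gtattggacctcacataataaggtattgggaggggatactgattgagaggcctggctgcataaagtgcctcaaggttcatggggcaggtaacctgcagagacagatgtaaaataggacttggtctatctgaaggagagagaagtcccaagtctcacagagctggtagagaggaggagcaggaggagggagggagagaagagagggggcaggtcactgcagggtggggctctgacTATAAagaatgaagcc
Ccl8: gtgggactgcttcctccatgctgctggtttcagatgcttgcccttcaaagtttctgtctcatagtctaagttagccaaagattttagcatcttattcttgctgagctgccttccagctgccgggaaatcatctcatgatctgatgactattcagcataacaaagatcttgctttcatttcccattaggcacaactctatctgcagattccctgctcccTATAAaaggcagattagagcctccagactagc
Cxcl13: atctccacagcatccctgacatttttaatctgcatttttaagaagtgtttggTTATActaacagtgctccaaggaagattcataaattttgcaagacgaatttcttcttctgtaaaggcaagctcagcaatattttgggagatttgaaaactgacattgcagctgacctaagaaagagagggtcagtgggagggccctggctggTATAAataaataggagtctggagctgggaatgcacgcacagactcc
Cxcl10: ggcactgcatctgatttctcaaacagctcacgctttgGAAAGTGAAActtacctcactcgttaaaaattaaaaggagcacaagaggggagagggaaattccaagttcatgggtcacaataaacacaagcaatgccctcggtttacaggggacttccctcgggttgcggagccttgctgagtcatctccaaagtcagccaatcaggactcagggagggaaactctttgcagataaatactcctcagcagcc

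Of the 10 chemokine genes, 8 had at least 1 entry in the promoter table, with 9 entries in all, and Ccl11 and Cxcl16 had none. TATAA was found in 5 of the 9 entries, against 22.8% of all 32851 promoters. In Ccl8 it lay 32 to 28 bases before the start, and in the downstream Ccl25 promoter 16 to 12 bases before it. The upstream Ccl25 promoter held none. The response element letters were in 0 of the 9 entries, against 2.98% of all promoters, and the gamma-activated site letters TTCNNNGAA were in 0 of the 9, against 7.02%. Cxcl10 held the response element letters 213 to 204 bases before its start, while Cxcl9, the other interferon-inducible chemokine with an entry, held neither of these elements and held TATAA 195 to 191 bases before its start. A match is a description of letters in this window and says nothing about the factors that bind there.

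None of the chemokines differed between the genotypes at the threshold of the fit over all probe sets. Of the 17 probe sets, 14 from 9 genes were bright enough to be tested and 3 were below the filter, which lay at a mean intensity of about 93.3. No member had a limma adjusted p under 0.05 (0 of 14; smallest adjusted p 0.752), and 0.00% of all 13576 tested probe sets did. At an unadjusted p under 0.05 there was 1 of 14, Ccl8, against 5.69% of all tested probe sets. Ccl8 was higher in heterozygous colon, as were 3.12% of tested probe sets at that p, and 0 members were lower, against 2.56%. The members' fold changes were positive for 7 and negative for 7, with a median log2 of -0.02, against 0.00 for all tested probe sets. In bulk tissue, fewer cells of a type and less RNA per cell cannot be told apart in any of these values.

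For 12 of the 14 tested probe sets the 95% interval of the fold change lay within 2-fold in either direction on the log2(signal + 16) scale. The exceptions were Ccl25 and Ccl8, whose arrays ranged most widely. Among all 17 probe sets the groups did not overlap for 1, a dim Cx3cl1 probe set, against 11.1% of all probe sets. Its heterozygous arrays were the lower ones, which was so for 6.56% of all probe sets, and for 0 members were they the higher ones, against 4.55%. From the lowest to the highest array, 5 of the 14 tested probe sets spanned at least 2-fold in signal + 16, against 8.12% of all tested probe sets.

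**Figure D1:**
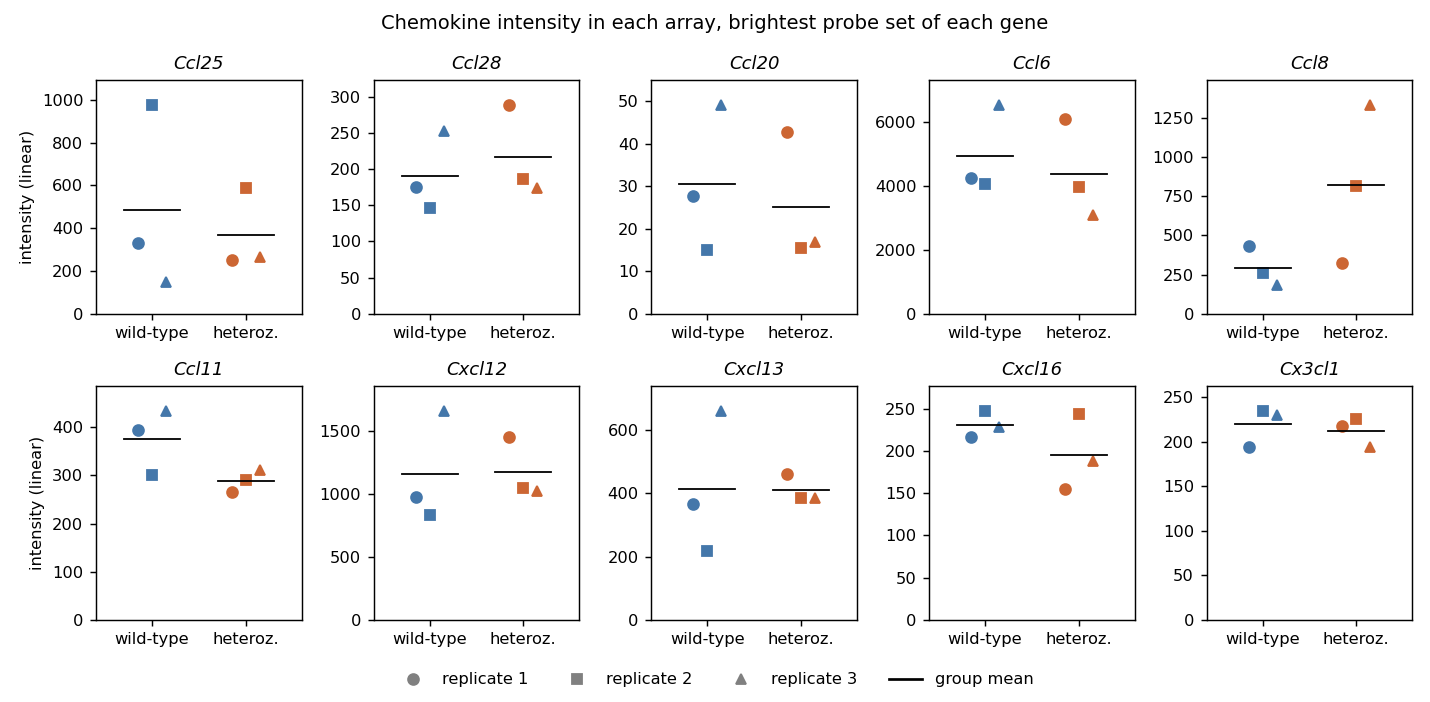
Deposited intensity (linear axis from 0) of the brightest probe set of each of the 10 chemokine genes, with 1 point per array, marker shape for the replicate number and a bar for the group mean. The points of the 2 genotypes overlap in all 10 panels, Ccl25 is highest in wild-type replicate 2 at 977.3, and Ccl8 is highest in heterozygous replicates 3 and 2 at 1334.6 and 815.9.

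Ccl25 calls T cells and plasma cells that carry its receptor Ccr9, and in the resting gut it is a product of small intestinal epithelium. Its single probe set read 329.3, 977.3 and 148.4 in wild-type replicates 1, 2 and 3 and 250.2, 587.2 and 264.5 in heterozygous replicates 1, 2 and 3. Replicate 2 was the highest array of each genotype, and the groups overlapped throughout. The means were 485 ± 436 and 367 ± 191 (SD, n = 3 each), with a log2 fold change of -0.11 (SE 0.57, 95% interval -1.39 to 1.17, limma adjusted p = 0.993). Of all tested probe sets, 0.420% had a wider range over the 6 arrays. The direction depended on single arrays, since without wild-type replicate 2 the log2 fold change was 0.58 and without wild-type replicate 3 it was -0.72. With both arrays low for ileal genes left out it was -0.51.

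Ccl25 followed the ileal genes from array to array. The ileal score, the mean centred log2 value of 10 measured ileal enterocyte genes, was 0.47, 1.48 and -1.45 in wild-type replicates 1, 2 and 3 and -1.01, 0.98 and -0.47 in heterozygous replicates 1, 2 and 3. The order of the 6 arrays by Ccl25 was the order by ileal score. Pearson's r was 0.95 (exact permutation p = 0.00139) and Spearman's rho was 1 (exact permutation p = 0.00278) over 6 arrays, both two-sided, and this was the 1 relation tested in this way. Without wild-type replicates 2 and 3, the arrays farthest from the median score, r was 0.90 over 4 arrays. The arrays share their tissue piece and scaling, and the list was chosen with earlier results known. The score of 7 colonocyte genes was 0.03, 0.27 and -0.76 in the wild-type and -0.30, 0.39 and 0.37 in the heterozygous arrays. It too was lowest in wild-type replicate 3 and heterozygous replicate 1, but highest in heterozygous replicate 2. Its relation to Ccl25 was not tested, so the match is not shown to be particular to ileal genes.

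The summed intensity of the ileal list ran from 8396 to 30523 in wild-type and from 10346 to 25076 in heterozygous colon, and 0 of its genes was listed at 0. Apoa1, Fabp6 and Anpep, an apolipoprotein, a bile acid binding protein and a brush border peptidase, were all highest in wild-type replicate 2. Fabp6 was close to that in heterozygous replicate 2, at 5621.6 against 5661.9. Not every gene of the list peaked there, since Fabp2 and Lct were highest in heterozygous replicate 2. Lct, which was dim, was lowest in wild-type replicate 2, at 8.0. With the ileal score as a covariate, chosen after seeing the data, the Ccl25 log2 fold change was 0.15 (95% interval -0.30 to 0.59), a narrower interval than without it. The part of the ileal signal in the Ccl25 values was otherwise not tested. Ccr9 had 3 probe sets, all below the filter, and the means of its brightest were 35.1 ± 19.2 (wild-type) and 53.8 ± 22.2 (heterozygous; SD, n = 3 each), with overlapping groups.

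**Figure D2:**
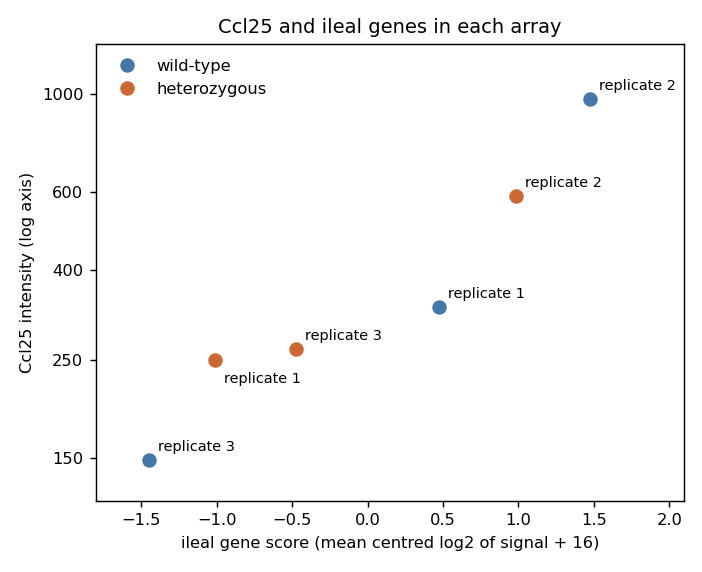
Ccl25 intensity (log axis) against the ileal gene score (mean centred log2 of signal + 16 over 10 genes), with 1 point per array, coloured by genotype. The 6 arrays keep the same order on both axes, from wild-type replicate 3 at 148.4 to wild-type replicate 2 at 977.3, with the genotypes interleaved.

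Ccl28, made by colon epithelium, attracts IgA plasma cells through Ccr10. Its brighter probe set read 175.0, 145.6 and 252.7 in the wild-type and 288.9, 186.9 and 174.0 in the heterozygous arrays, in replicate order. Heterozygous replicate 1 was the highest array at both probe sets, and the second read 281.1 there against 143.9 to 186.9 in the other 5. The log2 fold changes were 0.17 (SE 0.24) and 0.14 (SE 0.23), limma adjusted p = 0.963 and 0.972, and without heterozygous replicate 1 they turned to -0.04 and -0.13. Ccr10 was below the filter, from 14.0 to 80.6 in wild-type and from 41.6 to 66.0 in heterozygous arrays. The plasma cell gene Jchain, the joining chain of secreted IgA, ran from 4794.2 to 6726.7 in wild-type and from 5696.6 to 6443.9 in heterozygous arrays.

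Ccl20, which the epithelium over lymphoid follicles makes to draw in cells with Ccr6, was dim. It read 27.6, 14.9 and 49.1 in the wild-type and 42.8, 15.4 and 16.8 in the heterozygous arrays. All 6 values lay below the filter, so no fold change was tested, and the exact permutation p was 0.7, where 0.1 is the smallest possible for 3 against 3 arrays. The highest arrays were wild-type replicate 3 and heterozygous replicate 1. Ccr6, also below the filter, read 98.0, 81.9 and 105.5 in the wild-type and 102.8, 74.9 and 76.1 in the heterozygous arrays, with the same 2 arrays highest. Its lowest 2 arrays were heterozygous.

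Cxcl13 organises B cell follicles through Cxcr5. At the brighter probe set it read 367.2, 217.3 and 661.2 in the wild-type and 462.3, 384.6 and 385.6 in the heterozygous arrays. The heterozygous arrays lay inside the wild-type range, with means of 415 ± 226 and 411 ± 44.6 (SD, n = 3 each). The log2 fold change was 0.12 (SE 0.32, 95% interval -0.60 to 0.84, limma adjusted p = 0.985), and that of the second probe set was 0.01 (SE 0.22). Without wild-type replicate 2, the lowest array, the values were -0.26 and -0.18. Cxcr5 was below the filter and highest in wild-type replicate 3, with means of 45.0 ± 21.5 (wild-type) and 32.2 ± 14.6 (heterozygous; SD, n = 3 each).

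Cxcl12, a product of fibroblasts and endothelium, holds cells with Cxcr4 and is also bound by the scavenging receptor Ackr3. Its brighter probe set read 974.1, 832.3 and 1659.5 in the wild-type and 1454.1, 1048.9 and 1023.6 in the heterozygous arrays. Wild-type replicate 3 and heterozygous replicate 1 were the highest at both probe sets. The log2 fold changes were 0.07 (SE 0.25) and -0.15 (SE 0.26), of opposite sign, with limma adjusted p = 0.985 and 0.972. Ackr3 was even across the arrays, at 397 ± 24.2 and 388 ± 14.8 (SD, n = 3 each; log2 -0.03, SE 0.12). Cxcr4, below the filter, read 76.3 ± 37.5 and 90.3 ± 19.9 and was again highest in those 2 arrays.

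Ccl6, a chemokine of resident macrophages and other myeloid cells that binds Ccr1, read 4255.4, 4047.2 and 6537.2 in the wild-type and 6092.5, 3950.8 and 3078.8 in the heterozygous arrays. The second probe set followed the same 2 high arrays, with 3967.1 (wild-type replicate 3) and 3258.3 (heterozygous replicate 1) against 1778.9 to 2493.9 elsewhere. Heterozygous replicate 3 was the lowest at both. The log2 fold changes were -0.20 (SE 0.25) and -0.27 (SE 0.26), limma adjusted p = 0.954 and 0.937. Without wild-type replicate 3 the values were 0.02 and -0.01, and without heterozygous replicate 1 they were -0.47 and -0.52. Ccr1 had means of 111 ± 15.7 and 110.4 ± 4.86 (SD, n = 3 each), a log2 difference smaller than its SE of 0.17.

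Wild-type replicate 3 and heterozygous replicate 1 were thus the 2 highest arrays for 8 of the 17 probe sets, from the 5 genes Ccl6, Cxcl12, Cxcl13, Ccl28 and Ccl20. The same held for 10.8% of all probe sets. It also held for the brightest probe sets of 4 of 12 receptors, Cxcr4, Cxcr5, Ccr6 and Cx3cr1. The 2 arrays are of opposite genotype, so this pattern runs across the comparison and not along it. For Ccl28 the pattern held at the brighter probe set alone. At the second, wild-type replicate 3 read 172.6, below wild-type replicate 1 at 186.9. The pattern was noticed in these values and carries no test.

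Some marker lists were high in the same 2 arrays and others were not. For the B cell and follicle list it was so in 5 of 7 measured genes, with summed intensities of 314 to 1023 in wild-type and 414 to 862 in heterozygous colon, and the B cell surface gene Ms4a1 read 279.7 and 196.0 there against 34.9 to 113.7 elsewhere. It was so for 4 of 4 enteric neuron genes, with sums of 722 to 1132 and 903 to 1285, and for 3 of 8 fibroblast genes, with sums of 19024 to 24727 and 19203 to 22450. These 2 arrays were the highest for 0 of 10 macrophage, 0 of 6 endothelial, 0 of 6 T cell and 1 of 6 plasma cell genes. In all these lists, 0 genes were listed at 0. Their part in the chemokine values was not tested. With both arrays left out, Ccl6 had a log2 fold change of -0.25, Cxcl12 of 0.20, Cxcl13 of 0.42 and Ccl28 of 0.16, each at the brightest probe set. At the second probe sets the values were -0.26 for Ccl6, -0.24 for Cxcl12, 0.083 for Cxcl13 and -0.12 for Ccl28, so the sign of Cxcl12 and Ccl28 differed between probe sets.

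**Figure D3:**
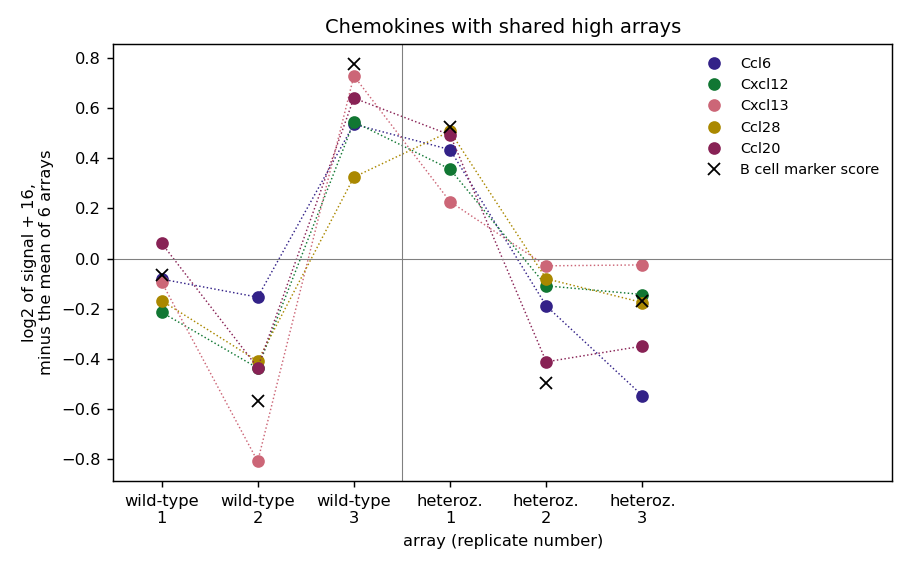
Centred log2(signal + 16) of the brightest probe sets of Ccl6, Cxcl12, Cxcl13, Ccl28 and Ccl20 in each array, with the B cell marker score as crosses and dotted lines that only join the points of a gene. Wild-type replicate 3 and heterozygous replicate 1 are above 0 for all 5 chemokines, at 0.54 and 0.43 for Ccl6 and 0.73 and 0.23 for Cxcl13.

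Ccl8, a monocyte-attracting chemokine of macrophages in the wall, had the largest genotype difference among the 17 probe sets. It read 431.0, 262.2 and 182.2 in the wild-type and 324.3, 815.9 and 1334.6 in the heterozygous arrays. Heterozygous replicates 2 and 3 lay above every wild-type array, and heterozygous replicate 1 lay below wild-type replicate 1. The means were 292 ± 127 and 825 ± 505 (SD, n = 3 each), with a log2 fold change of 1.32 (SE 0.46, 95% interval 0.28 to 2.35). The limma adjusted p was 0.752 (unadjusted p = 0.0180), the exact permutation p was 0.2, and the groups overlapped.

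The size of the Ccl8 difference turned on which heterozygous arrays were present. Without heterozygous replicate 1 the log2 fold change was 1.86 (limma adjusted p = 0.0810), and without heterozygous replicate 3 it was 0.87 (limma adjusted p = 0.9998). With both arrays low for ileal genes left out it was 1.59 (limma adjusted p = 0.0531). Over the alternatives that kept all 6 arrays it ran from 1.20 to 1.41.

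Interferon-inducible chemokines, which call activated T cells, were also highest in heterozygous replicate 3. Cxcl9 had means of 72.1 ± 27.4 (wild-type) and 362 ± 176 (heterozygous), SD, n = 3 each (log2 2.01, SE 0.37, limma adjusted p = 0.206). Ccl5 read 165.5, 217.1 and 118.7 in the wild-type and 151.5, 1123.2 and 1714.1 in the heterozygous arrays, so that heterozygous replicate 1 stayed among the wild-type arrays there too (log2 1.95, SE 0.71, limma adjusted p = 0.801). Of the 4 such genes, 3 were tested, all 3 had an unadjusted p under 0.05, against 5.69% of all tested probe sets, and 0 had an adjusted p under 0.05 in limma. The heterozygous arrays were all above the wild-type arrays for Cxcl9, Cxcl10 and Cxcl11, against 4.55% of all probe sets, although a second, dim Cxcl11 probe set overlapped. Without heterozygous replicate 1, Cxcl9 and Ccl5 had log2 fold changes of 2.46 and 2.97 and were under the adjusted threshold (limma adjusted p = 0.0143 and 0.00667). Cxcl9 passed the filter through its heterozygous arrays, its wild-type mean being below it. Its p values in either setting, and its place in the count of 3, are therefore no support on their own. The list of 4 was itself chosen with earlier results of these data known.

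Many interferon-response genes and some macrophage markers also had higher heterozygous means, and 0 of either list had a limma adjusted p under 0.05. The score of 14 interferon-response genes was -0.51, -0.66 and -0.28 in the wild-type and 0.06, 0.58 and 0.81 in the heterozygous arrays. Fold changes were positive for 13 of 13 tested members, with a median log2 of 0.90. Usp18 and Stat2 among these passed the filter through their heterozygous arrays, with wild-type means of 83.1 and 89.9. Their signs are therefore no support on their own. Over all 13576 tested probe sets, 6883 had positive fold changes. All heterozygous arrays were above all wild-type arrays for 8 of the 14, against 4.55% of all probe sets. This list and the macrophage list were chosen with earlier results of these data known, so their counts are no support on their own. Mx1, which was below the filter and so not tested, had a lower heterozygous mean (95.6 in wild-type and 69.7 in heterozygous arrays). Of 10 macrophage markers, 8 had positive fold changes and 2 negative, with a median log2 of 0.26 and summed intensities of 6057 to 7217 in wild-type and 6606 to 9204 in heterozygous colon. No macrophage marker was listed at 0, and the lowest value of any was 109.4. The endotoxin co-receptor Cd14 was highest in heterozygous replicate 3, at 1156.7, as Ccl8 was. The same array was the highest for Csf1r, Cd163, Mrc1, C1qa, C1qb and C1qc at their brightest probe sets. Cd68 was highest in wild-type replicate 1, Lyz2 in wild-type replicate 2 and Adgre1 in heterozygous replicate 2. All heterozygous arrays were above all wild-type arrays for 3 of the 10, Csf1r, C1qc and Cd14, against 4.55% of all probe sets. Further Csf1r probe sets overlapped between the groups. The 2 negative fold changes were those of Cd68 and Mrc1. The part of macrophage number or of interferon in the Ccl8 values was not tested.

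Ccl11, eotaxin, draws eosinophils into the gut wall through Ccr3. It read 394.5, 300.6 and 433.8 in the wild-type and 265.1, 289.9 and 311.0 in the heterozygous arrays. Heterozygous replicates 1 and 2 lay below every wild-type array, and heterozygous replicate 3 lay between wild-type replicates 2 and 1. The means were 376 ± 68.4 and 289 ± 23.0 (SD, n = 3 each), with a log2 fold change of -0.35 (SE 0.16, 95% interval -0.71 to 0.01). The limma adjusted p was 0.874 (unadjusted p = 0.0532) and the exact permutation p was 0.2. The log2 fold change was -0.19 with both arrays low for ileal genes left out and -0.50 without wild-type replicate 2.

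The eosinophil markers that would show Ccl11's target cells were dim. None of the 4 measured, Siglecf, Epx, Prg2 and Il5ra, passed the filter, and their summed intensity was 103 to 126 in wild-type and 106 to 131 in heterozygous colon. Ccr3 was below the filter too, with 0.9 to 6.7 over the 6 arrays. In the order of the chemokine genes on chromosome 11, Ccl11 and Ccl8 are separated by Ccl12 alone, in a cluster with Ccl2, Ccl7 and Ccl1. Ccl12 was below the filter, and ran from 30.4 to 61.9 in the wild-type and from 82.6 to 94.2 in the heterozygous arrays. It was the 1 of 19 other chemokines measured whose groups did not overlap with the heterozygous arrays higher, against 4.55% of all probe sets. Ccl2 and Ccl7, both below the filter with overlapping groups, had lower heterozygous linear means. These were 48.9 and 41.7 for Ccl2 and 32.6 and 21.9 for Ccl7 (wild-type first). On the log2(signal + 16) scale the untested difference was -0.35 for Ccl7 but 0.08 for Ccl2, whose wild-type arrays read 79.0, 5.0 and 62.8. The direction of Ccl2 is therefore not settled.

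Cxcl16 and Cx3cl1 are made as membrane proteins on epithelium, endothelium and myeloid cells and are shed by the proteases Adam10 and Adam17. Cxcl16 at its brighter probe set read 216.6, 247.6 and 228.6 in the wild-type and 155.4, 243.7 and 188.6 in the heterozygous arrays (log2 -0.24, SE 0.17, limma adjusted p = 0.923). The dimmer probe set, below the filter, went the other way, with 78.6 ± 6.44 and 98.2 ± 12.8 (SD, n = 3 each), and overlapped between the groups. The direction of Cxcl16 is therefore not settled by its 2 probe sets.

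The receptor of Cxcl16 had a larger fold change than its ligand, and neither was under the adjusted threshold. Cxcr6, carried by resident T cells, read 72.3, 55.0 and 60.9 in the wild-type and 104.4, 163.7 and 227.7 in the heterozygous arrays at the brighter probe set. All 3 heterozygous arrays were above all 3 wild-type arrays at both Cxcr6 probe sets, against 4.55% of all probe sets. The dimmer, which was below the filter and not tested, read 31.2 ± 9.51 and 89.5 ± 39.7 (SD, n = 3 each). At the brighter probe set the log2 fold change was 1.15 (SE 0.26, limma adjusted p = 0.454, unadjusted p = 0.00157). Cxcr6 passed the filter through its heterozygous arrays, with a wild-type mean of 62.7, and was below it without heterozygous replicate 2 or 3, so this p supports nothing on its own. Without heterozygous replicate 1 it was 1.42 (limma adjusted p = 0.0542).

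The summed T cell markers were highest in heterozygous replicates 2 and 3, as Cxcr6 was. Single genes did not all follow, since Cd3e and Cd247 read higher in wild-type replicate 2 than in heterozygous replicate 2. Of 6 measured T cell genes only Cd3d and Cd3g were tested, both with positive fold changes and 0 with an adjusted p under 0.05 in limma. Cd3d read 109.5, 197.7 and 304.7 in the heterozygous arrays against 81.0 to 109.8 in the wild-type arrays. Its wild-type mean of 92.9 was just below the filter, which it passed through its heterozygous arrays, so its sign is no support on its own. The list's summed intensity was 331 to 417 in wild-type and 345 to 930 in heterozygous colon, and 0 of its genes was listed at 0. The part of T cell number in the Cxcr6 values was not tested.

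Cx3cl1, fractalkine, supports macrophages with Cx3cr1 along the epithelium, and it was among the steadiest of these genes. The brightest probe set read 194.4, 234.7 and 230.1 in the wild-type and 217.6, 225.1 and 194.6 in the heterozygous arrays (log2 -0.04, SE 0.14, 95% interval -0.36 to 0.28, limma adjusted p = 0.985). Its range over the arrays was exceeded by 89.1% of tested probe sets. The second probe set had a log2 fold change of 0.08 (SE 0.16). The dimmest read 65.0, 58.0 and 79.6 in the wild-type and 53.9, 44.8 and 48.9 in the heterozygous arrays, and was the member probe set whose groups did not overlap (exact permutation p = 0.1, the smallest possible).

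Of the partners of Cx3cl1 none had an unadjusted p under 0.05 in limma. Cx3cr1 at its brighter probe set had a log2 fold change of 0.18 (SE 0.26), which was -0.09 without wild-type replicate 2. Adam10 at its brightest probe set ran from 1516.2 to 1809.0 over the 6 arrays (log2 -0.07, SE 0.11), and Adam17 had a log2 fold change of 0.11 (SE 0.14). Of 12 measured receptors of these chemokines, 4 were tested at their brightest probe set and 0 had a limma adjusted p under 0.05. At an unadjusted p under 0.05 there was 1, Cxcr6, against 5.69% of all tested probe sets, and Cxcr6 passed the filter through its heterozygous arrays. Of 19 other chemokines measured, 4 passed the filter at their brightest probe set, and at those probe sets 0 had an unadjusted p under 0.05 in limma. The nearest of them was Ccl9, a myeloid and follicle epithelium chemokine (log2 -0.19, SE 0.13, limma adjusted p = 0.916). A second probe set of Cxcl14, an epithelial chemokine, had a log2 fold change of 0.66 (SE 0.26, limma adjusted p = 0.817, unadjusted p = 0.0328), against 0.21 (SE 0.18) at its brightest.

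**Figure D4:**
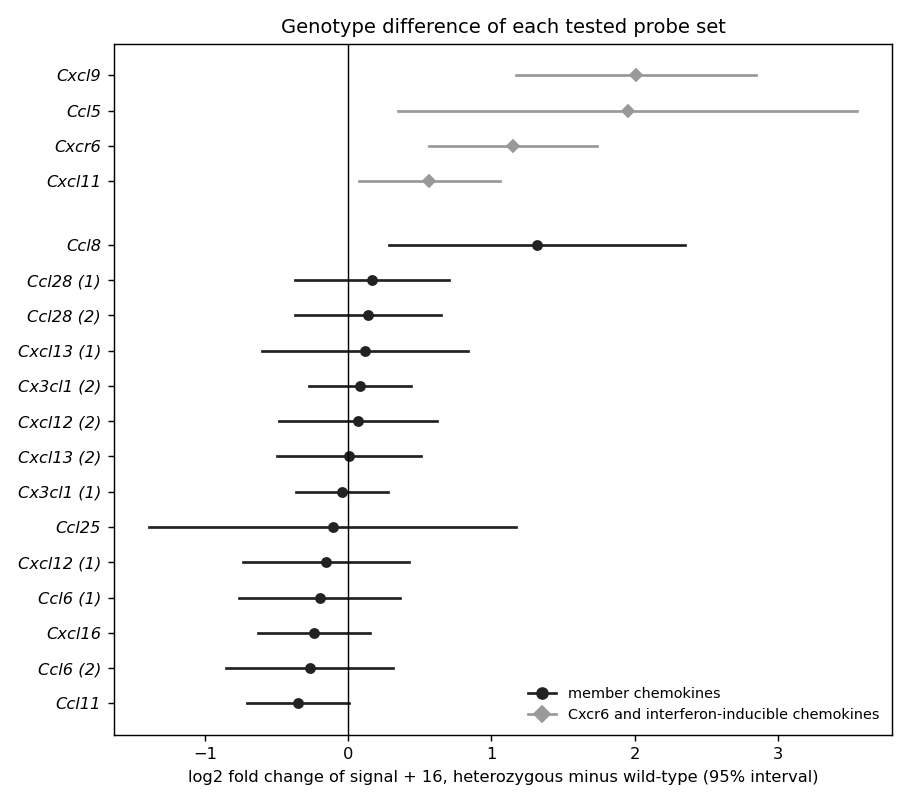
Log2 fold change of signal + 16, heterozygous minus wild-type, with its 95% interval from limma, for the 14 tested chemokine probe sets (black circles; numbers in brackets tell probe sets of 1 gene apart) and for Cxcr6, Cxcl11, Ccl5 and Cxcl9 (grey diamonds). Among the member chemokines the interval excludes 0 for Ccl8 alone, at 1.32, and 12 of the 14 intervals lie within -1 and 1.

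The genes whose array pattern was most like that of the wide-ranging chemokines were named by Pearson's r over the 6 arrays, among 636 other genes that spanned at least 2-fold. For Ccl25 they were Abhd3 (r = 0.99) and Lce1i (0.99), for Ccl6 Rgs17 (0.99) and Lrrc56 (0.99), for Ccl8 the clock gene Arntl (0.97) and Ripk3 (0.97), and for Cxcl13 Krt84 (0.97) and Rcn1 (0.96). The number of genes with r above 0.95 was 13 for Ccl25, 11 for Ccl6, 5 for Ccl8 and 3 for Cxcl13. These are descriptions over 6 points that share their libraries, with no test.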

How the data were processed

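Per the labels, biotin-labelled RNA amplified from each colon was put on 1 array. The deposited table gives a linear intensity for every probe set. The authors used GCOS, the array maker's software, per the submitters' processing notes, which state no version. Of 22690 probe sets, 64 controls were dropped. Platform annotation named 20380 of the rest with 1 symbol, 691 with several and 1555 with none. Array medians of log2(signal + 16) lay within 0.09, so no further normalization was applied. Probe sets under the 40th percentile of mean log2 value were not tested. On the other 13576, genotypes were tested in R 4.3.3 by limma 3.58.1 (variance trend, two-sided, Benjamini-Hochberg threshold 0.05), and the code was tested on simulated data. A two-sided exact permutation of the arrays was run for each probe set. Folds on this scale understate dim genes, and 3 arrays per group limit precision. The naming rule covered each member, its receptors, the interferon-inducible chemokines, the gene of smallest p in another list and the 2 most similar genes; marker genes outside it, and Ccl12, were picked after their values were seen. Members and lists were chosen with earlier results of these data known. Alternatives changed the scaling, pseudocount, filter, variance model, weights, block and arrays included.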

Additional observations from a re-analysis of the deposited data

How the results depend on the processing

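The chemokine probe sets had 0 limma calls under each of the 17 other settings, with 0 to 2 at an unadjusted p under 0.05. Over all probe sets the count of 0 became 8 with a robust variance trend, 4 with array weights, 14 with the ileal score as a covariate and 67 with both arrays low for ileal genes left out, and it ran from 0 to 39 when 1 array was left out (39 without heterozygous replicate 1, 2 without wild-type replicate 3). The ileal covariate and leaving out both arrays were added after seeing the data. Unadjusted counts were 772 in the main setting, 1395 without a filter, 443 with a filter at the 60th percentile and 439 without heterozygous replicate 3. Receptors and other chemokines had 0 calls, 2 with both arrays left out and 0 to 2 when 1 array was left out, the 2 being Cxcl9 and Ccl5. With both arrays left out, these had log2 fold changes of 2.38 and 2.77. Cxcl9 passed the filter through its heterozygous arrays, so its calls are no support on their own.

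With a replicate block there were 0 calls (921 unadjusted), and Ccl8 had a log2 fold change of 1.32 (limma adjusted p = 0.711). Same-numbered arrays deviated from their group means with correlations of -0.12, 0.49 and 0.04, so the numbers were not taken to pair the samples.

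Of 393 alternative values for 24 probe sets, 360 kept direction and side of the threshold, 4 newly passed it and 29 changed sign, none of these called. With the ileal covariate the log2 fold change was 0.15 for Ccl25, -0.027 for the brighter Cxcl12 probe set, -0.011 and -0.083 for Cxcl13, and 0.011 for Ccr1, which was 0.023 after quantile normalization. With both arrays left out it was 0.013 for Ackr3 and -0.12 for the second Ccl28 probe set. Leaving out 1 array gave ranges of -0.72 to 0.58 for Ccl25, -0.044 to 0.37 and -0.13 to 0.32 for Ccl28, -0.47 to 0.023 for the brighter Ccl6 probe set, -0.43 to 0.032 and -0.13 to 0.36 for Cxcl12, -0.26 to 0.51 and -0.18 to 0.23 for Cxcl13, -0.12 to 0.014 for the brightest Cx3cl1 probe set, -0.085 to 0.41 for Cx3cr1, -0.071 to 0.095 for Ccr1 and -0.056 to 0.016 for Ackr3. The cause of these changes was not tested. Ccl8 stayed between 0.87 and 1.86 and Ccl11 between -0.50 and -0.25. Cxcr6 fell below the filter without heterozygous replicate 2 or 3, and with a filter at the 60th percentile, and has no value there. Ccl20, Ccr3 and the eosinophil genes were below the filter and were not tested with limma, and with no detection calls their distance from background is unknown.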
